A study of Homo sapiens with 9 samples.

Results

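Regulators of neural progenitors other than the SOX factors were represented by 8 genes, PAX6, POU3F2, POU3F3, DACH1, ZBTB16, MSI1, FABP7 and LIX1, picked by gene symbol from the 46427 genes of the count table. All 8 were found, and all 8 were among the 20685 genes with enough counts to be tested. The samples were 9 RNA sequencing libraries of H9, an established human embryonic stem cell line, in 3 groups of 3. The first group, BafA1 NPC, held neural progenitor cells (NPC) at day 11 of differentiation that had received bafilomycin A1 (BafA1), an inhibitor of the lysosomal proton pump, at 10 nM for 6 h. The second, control NPC, held day 11 NPC without BafA1, and the third, hESC, held undifferentiated H9 cells. Both NPC groups were differentiated towards midbrain dopamine neurons with 200 nM LDN193189 and 10 µM SB431542, which block BMP and TGF-beta receptors, 2 µM purmorphamine, which activates Hedgehog signalling, and 3 µM CHIR99021, which activates WNT signalling. Several exposure windows between days are listed in the protocols, and the one that applied to the sequenced cells is not known here. The libraries of a group are called biological replicates, but nothing says whether they came from separate differentiations, so p-values measure the spread between these libraries. All cells came from 1 line. The study asked how autophagy bears on neuronal differentiation and on WNT signalling.

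The 8 genes act at different levels of the progenitor state. PAX6 is a paired-box and homeobox transcription factor of forebrain, eye and dorsal hindbrain and spinal cord progenitors, which Hedgehog signalling lowers towards the ventral midline. POU3F2 (also called BRN2) and POU3F3 (BRN1) are class III POU factors, which bind octamer motifs and act, in part interchangeably in mouse cortex, in progenitors and their neurons. DACH1 and ZBTB16 (PLZF) are mainly repressors: DACH1 belongs to the retinal determination network, with PAX, sine oculis homeobox and EYA proteins, and ZBTB16 is a BTB zinc finger protein that recruits corepressors and is a marker of early neural rosettes. MSI1 is an RNA-binding protein that holds back the translation of its target messages, FABP7 (brain lipid-binding protein) carries fatty acids in radial glia, and LIX1 is a less studied gene with expression in the developing nervous system.

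The promoter sequences below show members with different expression histories: POU3F2, which was lower after BafA1, POU3F3, its close relative that was barely expressed, DACH1, which was strongly expressed in both NPC groups, and FABP7, which was already expressed in hESC. They are RefSeq windows of GRCh38.p14 from 250 bases before to 50 bases after a transcription start, 5′ to 3′ on the gene's strand. POU3F2 lies at chr6:98834324-98834623 on the plus strand, POU3F3 at chr2:104853865-104854164 on the plus strand, DACH1 at chr13:71867155-71867454 on the minus strand and FABP7 at chr6:122779466-122779765 on the plus strand. The POU3F3 and FABP7 windows lie inside the annotated gene, at a start downstream of its first base. Capitals mark the motifs found.
POU3F2: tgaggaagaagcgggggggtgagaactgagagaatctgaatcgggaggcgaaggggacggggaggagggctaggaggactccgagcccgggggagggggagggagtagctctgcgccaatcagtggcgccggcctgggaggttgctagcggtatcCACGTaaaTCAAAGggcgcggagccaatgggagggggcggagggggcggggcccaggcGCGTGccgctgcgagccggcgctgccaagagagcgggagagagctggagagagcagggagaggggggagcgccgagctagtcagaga
POU3F3: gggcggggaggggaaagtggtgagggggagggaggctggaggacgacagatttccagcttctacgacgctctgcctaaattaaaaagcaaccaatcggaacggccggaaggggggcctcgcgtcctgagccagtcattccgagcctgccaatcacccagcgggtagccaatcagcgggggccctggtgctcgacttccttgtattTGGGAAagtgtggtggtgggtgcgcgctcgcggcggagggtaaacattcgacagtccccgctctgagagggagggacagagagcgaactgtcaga
DACH1: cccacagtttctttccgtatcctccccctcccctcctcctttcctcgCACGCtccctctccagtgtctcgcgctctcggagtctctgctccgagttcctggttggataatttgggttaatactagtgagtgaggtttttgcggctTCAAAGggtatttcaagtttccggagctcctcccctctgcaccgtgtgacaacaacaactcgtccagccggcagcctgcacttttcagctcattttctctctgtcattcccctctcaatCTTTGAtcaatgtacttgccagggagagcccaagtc
FABP7: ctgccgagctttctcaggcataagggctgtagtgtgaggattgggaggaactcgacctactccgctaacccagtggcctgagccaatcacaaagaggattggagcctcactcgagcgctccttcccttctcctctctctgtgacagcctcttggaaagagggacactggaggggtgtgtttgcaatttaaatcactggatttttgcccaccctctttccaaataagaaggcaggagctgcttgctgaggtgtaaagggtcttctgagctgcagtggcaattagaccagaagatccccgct

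Each window was searched on both strands for 8 short motifs. The motif of POU factors was the octamer ATGCAAAT, and that of SOX factors was ACAATG. The word used for TCF and LEF factors, the nuclear end of WNT signalling, was CTTTGA. The core of the hypoxia response element was searched as ACGTG, and its second form had GCGTG, which shares the last 4 letters. The word for GLI factors was TGGGTGG, while RBPJ, the nuclear end of Notch signalling, was given TGGGAA, and the TATA box was given TATAAA. The POU3F2 window held the TCF and LEF word once on the minus strand, the first hypoxia word once on the minus strand and the second once on the plus strand, and none of these overlapped. The DACH1 window held the TCF and LEF word on each strand and the second hypoxia word on the minus strand, the POU3F3 window held the RBPJ word once, and the FABP7 window held none of the 8 motifs. These words are common: of 35116 promoter windows of the same length, 12.9% held the TCF and LEF word, 21.4% the first and 36.5% the second hypoxia word and 24.0% the RBPJ word, against 1.77% for the octamer, 10.8% for the SOX word, 9.19% for the GLI word and 11.5% for the TATA box. The share of G and C was 68.3% for POU3F2, 61.3% for POU3F3, 53.0% for DACH1 and 52.7% for FABP7, beside a median of 58.7% over all windows. The ratio of observed to expected CpG was 0.836 for POU3F2, 0.781 for POU3F3, 0.615 for DACH1 and 0.289 for FABP7, with a median of 0.579. FABP7 had the poorest CpG content of the 4. It was shown for its expression in hESC, and a link between CpG content and expression was not tested. PAX6 had 9 windows in the table, at its several starts, and ZBTB16, MSI1 and LIX1 had none.

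Library totals were 43124679 to 69703791 counts, so that 3 counts, used as the floor for a gene without counts, stood for 0.0461 to 0.0731 CPM (counts scaled by library total and by the trimmed mean of M-values, TMM). Levels below are CPM, as mean ± SD of 3 libraries, and changes are edgeR quasi-likelihood log2 fold changes with standard errors. A gene was called at a Benjamini-Hochberg adjusted p under 0.05 over all genes tested. The cells carried the labelled identities as far as marker genes show it: the summed level of 6 pluripotency markers was 178 to 213 FPKM in BafA1 NPC, 141 to 167 FPKM in control NPC and 1980 to 2200 FPKM in hESC, with TDGF1 at 0 counts in BafA1 NPC and POU5F1, TDGF1 and PRDM14 at 0 counts in control NPC. The sum of 4 neural progenitor markers was 202 to 218 FPKM in BafA1 NPC, 196 to 205 FPKM in control NPC and 111 to 118 FPKM in hESC. SOX2 and NES made up most of it, with means of 74.1 and 40.2 FPKM already in hESC. Of the 4, SOX2 and PAX6, itself a member, were called higher after BafA1, and NES was not called. SOX1 was called lower (-0.67 ± 0.20, adjusted p = 0.0202), although its libraries overlapped. The sum of 4 floor plate markers was 97.2 to 122 FPKM in BafA1 NPC, 76.6 to 128 FPKM in control NPC and 20.4 to 22.3 FPKM in hESC. The sum of 8 mesenchyme markers was 36.7 to 39.7 FPKM in BafA1 NPC, 52.2 to 65.3 FPKM in control NPC and 1.17 to 1.99 FPKM in hESC, so that the NPC groups did not overlap in it, as they did not in the pluripotency sum. The sum of 9 neuron markers was 170 to 186 FPKM in BafA1 NPC, 169 to 214 FPKM in control NPC and 95.9 to 107 FPKM in hESC. That of 4 astroglia markers stayed under 1 FPKM in every library. The part of these cell types in the results was not tested. In such bulk libraries fewer cells of a type and less RNA per cell cannot be told apart. Both comparisons below share the control NPC libraries.

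All 8 members were higher in control NPC than in hESC, whereas only PAX6 and POU3F2 passed the test after BafA1, in opposite directions. Between control NPC and hESC 8 of 8 members were called higher, beside 33.0% of all genes tested (31.6% were called lower, 64.5% in either direction). The members were chosen as neural progenitor genes with results of these data known, and several passed the filter on low counts through the NPC libraries alone, so this count is a description. Their libraries did not overlap with hESC in 7 of 8 members, the exception being FABP7, beside 72.8% of all genes. Between BafA1 NPC and control NPC 1 member was called higher, beside 20.8% of all genes, and 1 lower, beside 20.7%. That is 2 of 8 in either direction, below the 41.5% of all genes called, and 4 of 8 had no overlap between the groups (PAX6, ZBTB16, POU3F2 and LIX1), beside 49.2% of all genes. The median log2 change of the members after BafA1 was 0.097, beside 0 over all genes, and between control NPC and hESC it was 7.70, beside 0.034.

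**Figure D1:**
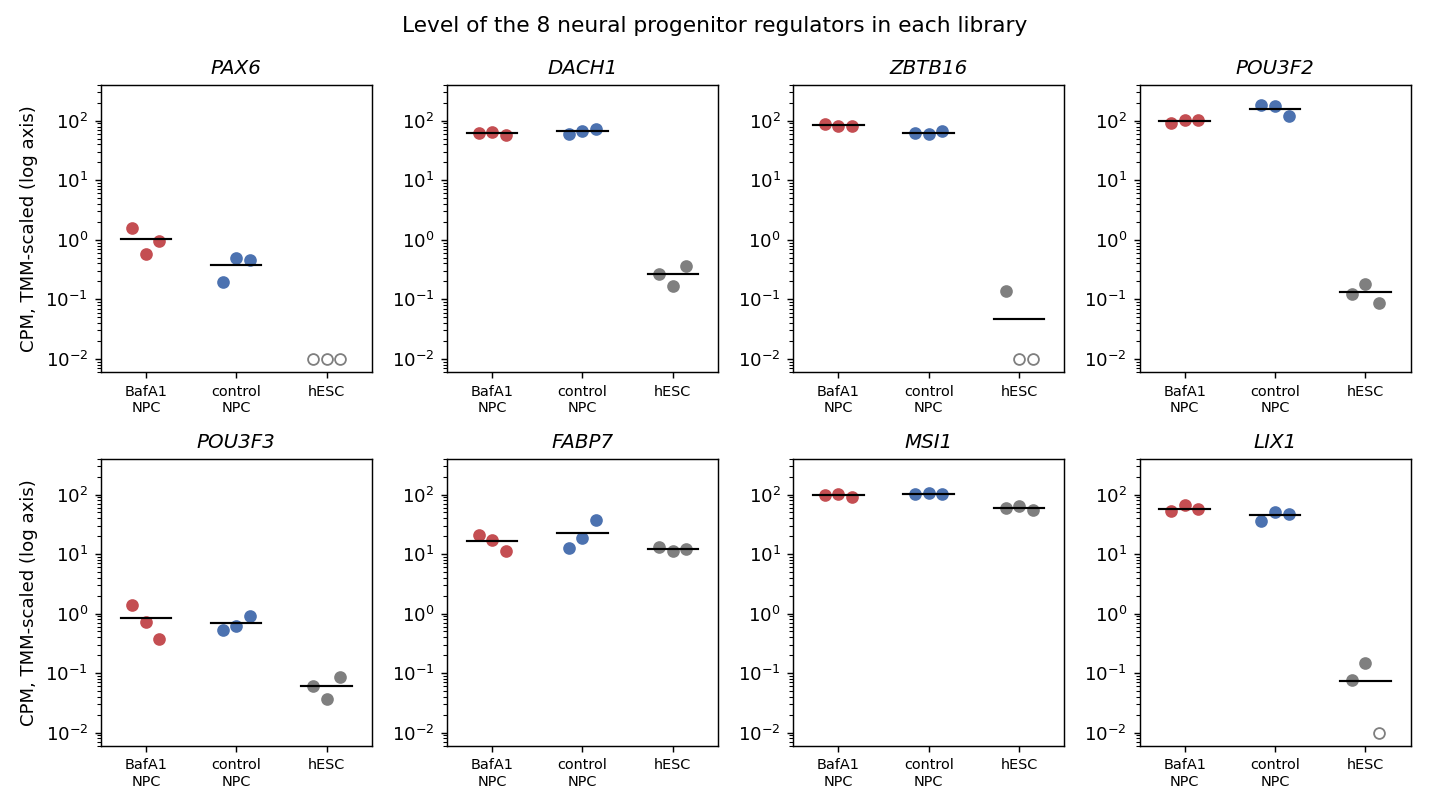
TMM-scaled CPM on a log axis of the 8 members in each library of BafA1 NPC, control NPC and hESC; points are libraries, lines are group means, and open circles at the bottom mark libraries with 0 counts. DACH1, ZBTB16, POU3F2 and LIX1 lie near or above 36 CPM in every NPC library and under 0.4 CPM in hESC, PAX6 and POU3F3 stay under 2 CPM in all libraries, and FABP7 and MSI1 are at least 11 CPM in all of them.

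**Figure D2:**
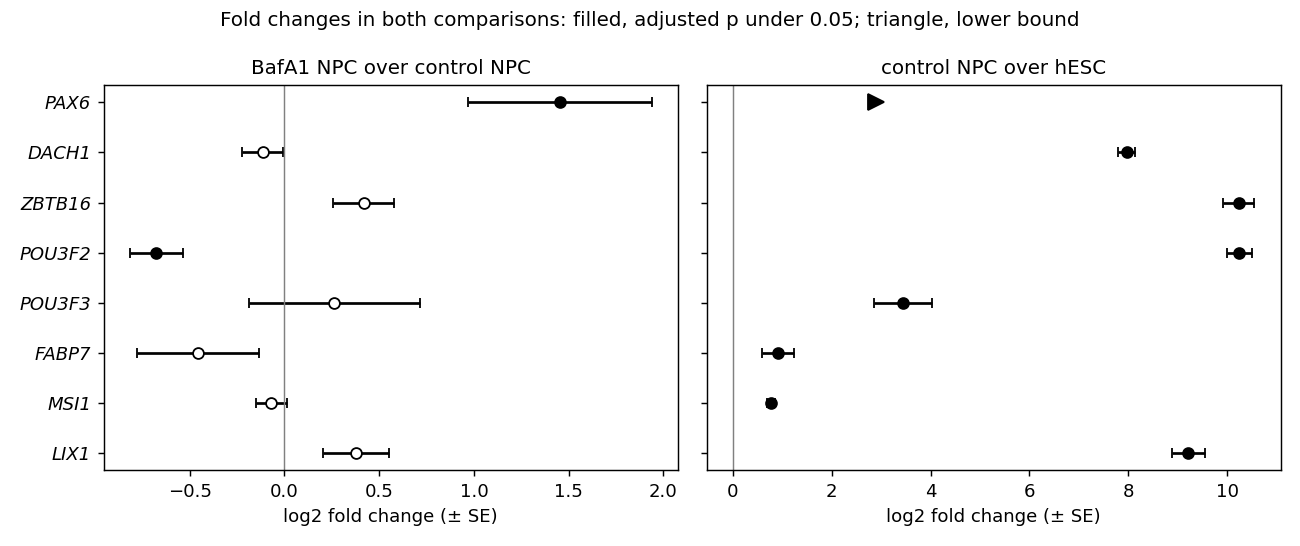
Log2 fold changes ± SE (edgeR) of the members for BafA1 NPC over control NPC on the left and control NPC over hESC on the right, on axes of different width; filled points passed an adjusted p of 0.05 and the triangle for PAX6 is not the edgeR value but the log2 of its lower bound of 7.48-fold, taken against 3 counts per hESC library, since hESC had no count. POU3F2 and PAX6 are the filled points on the left, at -0.68 and 1.45.

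PAX6 was close to silent in these midbrain cultures and its few reads were more frequent after BafA1. Its raw counts were 88, 24 and 61 in BafA1 NPC, against 10, 29 and 26 in control NPC and 0 in each hESC library. Scaled, these were 1.60, 0.585 and 0.947 CPM in BafA1 NPC, against 0.193, 0.490 and 0.458 CPM in control NPC. Every BafA1 library was above every control library, although the second BafA1 library lay only slightly above the second control library. The mean was 1.04 ± 0.516 CPM in BafA1 NPC and 0.380 ± 0.163 CPM in control NPC, a log2 change of 1.45 ± 0.48 (adjusted p = 0.0357). That call was lost in 8 of 19 alternative settings, among them scaling by library totals alone (adjusted p = 0.0559), the replicate number as a block (0.101), and leaving out BafA1 replicate 1 (1.03, 0.149) or control replicate 1 (1.15, 0.101), 2 (0.0577) or 3 (0.0546). Over hESC, where 3 counts per library were taken as the floor, PAX6 was at least 20.6-fold higher in BafA1 NPC and at least 7.48-fold higher in control NPC.

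The PAX6 gene lies at chr11:31789026-31817961 on the minus strand and overlaps ELP4, a subunit of the elongator complex on the plus strand, by 1299 bases. ELP4 had 26.8, 27.0 and 29.8 CPM in BafA1 NPC, against 18.8, 20.2 and 26.4 CPM in control NPC and 24.6 to 27.0 CPM in hESC. It was called higher after BafA1 (0.35 ± 0.12, adjusted p = 0.0364). The kit kept strand, but no source used here says whether the counting did, so reads of the shared bases cannot be assigned with certainty to either gene. In hESC, with ELP4 at these levels, PAX6 had 0 counts. Whether ELP4 reads entered the PAX6 counts of the NPC libraries was not tested. The antisense gene PAX6-AS1 had 0 counts in all 9 libraries.

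POU3F2 was lower after BafA1, the only BafA1 call among the members that was kept in every alternative setting run. Its level was 92.8, 102 and 105 CPM in BafA1 NPC, against 182, 176 and 121 CPM in control NPC and 0.123, 0.184 and 0.0853 CPM in hESC. The 3 BafA1 libraries lay close together below all control libraries, and the third control library stood lower than its 2 companions. The mean was 99.9 ± 6.27 CPM in BafA1 NPC and 159.5 ± 33.9 CPM in control NPC, a log2 change of -0.68 ± 0.14 (0.626-fold, adjusted p = 0.00256). Over the 19 alternative settings the call held, with log2 changes of -0.84 to -0.52 and adjusted p of 9.66e-05 to 0.0206. Against hESC, control NPC were higher by 10.24 ± 0.25 on the log2 scale (adjusted p = 3.34e-11), so that the gene remained far above its stem cell level with BafA1.

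POU3F3, in contrast, was barely expressed in any group. It had 77, 30 and 24 counts in BafA1 NPC, against 28, 37 and 52 counts in control NPC and 4, 2 and 5 counts in hESC. The NPC groups overlapped, with the highest and the lowest NPC value both in BafA1 libraries. Its mean was 0.835 ± 0.523 CPM in BafA1 NPC and 0.693 ± 0.197 CPM in control NPC (0.26 ± 0.45, adjusted p = 0.673), and leaving out BafA1 replicate 1 turned the direction (-0.35). Control NPC were higher than hESC, which had 0.0612 ± 0.0242 CPM (3.45 ± 0.59, adjusted p = 2.58e-04).

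The other class III genes completed the picture of this family. POU3F1 (OCT6), which is expressed in stem cells and epiblast, had 45.6, 50.1 and 42.6 CPM in BafA1 NPC, against 18.1, 19.7 and 22.7 CPM in control NPC and 62.0, 47.9 and 58.7 CPM in hESC. It was thus higher in all BafA1 libraries than in any control library (1.19 ± 0.12, adjusted p = 3.12e-05). It was lower in control NPC than in hESC (-1.48 ± 0.12, adjusted p = 4.50e-07). With GC and length trends removed, these log2 changes were 0.80 and -0.84. POU3F4 (BRN4), a gene of neural tube and inner ear development, had 6.12, 7.02 and 4.35 CPM in BafA1 NPC, against 8.70, 11.5 and 14.7 CPM in control NPC and 3.33, 4.77 and 3.48 CPM in hESC. It fell with BafA1 (a ratio of means of 0.502, adjusted p = 0.00470), and was higher in control NPC than in hESC (1.59 ± 0.23, adjusted p = 8.07e-05). Both BafA1 calls were kept in all 19 alternatives.

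On the FPKM scale, which takes gene length into account, POU3F2 made up 52.3, 52.6 and 57.9% of the summed level of the 4 class III genes in BafA1 NPC, against 81.5, 78.7 and 67.9% in control NPC and 0.114, 0.210 and 0.0677% in hESC. POU3F1 made up 42.4, 42.5 and 38.8% in BafA1 NPC, against 13.3, 14.5 and 21.0% in control NPC and 95.9, 92.6 and 95.5% in hESC. The 2 genes were thus nearer to equal in BafA1 NPC than in control NPC. The sum over the family was 30.4, 30.5 and 30.6 FPKM in BafA1 NPC, against 41.2, 41.8 and 32.2 FPKM in control NPC and 18.7, 14.9 and 18.2 FPKM in hESC. These shares were computed after the single genes had been seen and are given without a test.

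**Figure D3:**
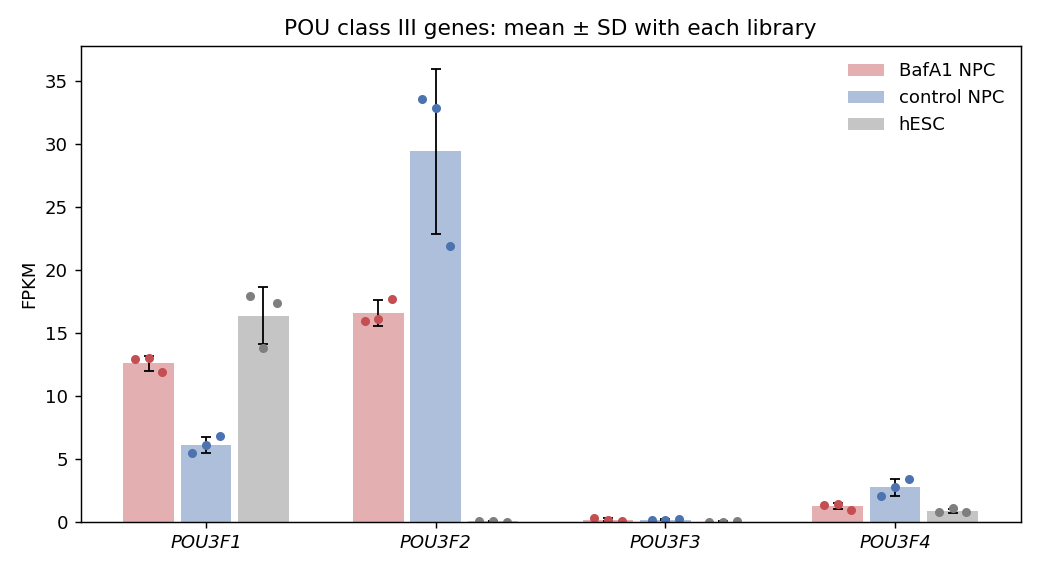
FPKM of the 4 class III POU genes in BafA1 NPC, control NPC and hESC; bars are means, error bars SD of 3 libraries, and points single libraries. POU3F2 is lower and POU3F1 higher in the BafA1 libraries than in the control libraries, without overlap, and POU3F3 stays under 0.3 FPKM throughout.

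The long noncoding RNA PNKY, which lies 2874 bases from POU3F2 and is known from mouse neural stem cells as a restraint on neuron production, was measured at the limit of depth. It had 16, 19 and 18 counts in BafA1 NPC, against 31, 57 and 34 counts in control NPC and 0, 0 and 2 counts in hESC. All BafA1 libraries were below all control libraries, but the change did not pass the test (-1.08 ± 0.46, adjusted p = 0.0822). It was called in 4 alternatives, with only the 6 NPC libraries in the fit (adjusted p = 0.0443) and with limma on FPKM (0.00519 to 0.0152). PANTR1, a long noncoding RNA 93 bases from POU3F3, had 0.686 ± 0.267 CPM in BafA1 NPC and 0.368 ± 0.261 CPM in control NPC (0.89 ± 0.55, adjusted p = 0.218), and was higher in control NPC than in hESC (4.79 ± 0.91, adjusted p = 5.92e-04). LINC01159, which lies within POU3F3 on the other strand, had 0 counts in 8 of 9 libraries.

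ZBTB16 was among the members with the largest gain during differentiation and stood higher after BafA1 in every library, without passing the test. Its level was 89.3, 80.9 and 83.0 CPM in BafA1 NPC, against 62.1, 60.9 and 66.5 CPM in control NPC. In hESC it had 9, 0 and 0 counts, so its reads came from a single stem cell library. The mean was 84.4 ± 4.33 CPM in BafA1 NPC and 63.2 ± 2.91 CPM in control NPC, a log2 difference of 0.42 ± 0.16 (1.34-fold, adjusted p = 0.0551). At nearly the same log2 difference (0.42 to 0.43) the adjusted p was 0.00655 when only the 6 NPC libraries were fitted, 0.00448 without hESC replicate 1, 0.0469 and 0.0460 without hESC replicates 2 and 3, and 1.56e-05 with DESeq2. Over its 19 alternatives the adjusted p ran up to 0.252, and 7 of them called the gene. Control NPC were higher than hESC by 10.23 ± 0.32 (adjusted p = 1.42e-10), a size that rests on the reads of hESC replicate 1: without it hESC had no count, and the fitted value was 14.77. NNMT, a methyltransferase gene 1036 bases from ZBTB16, had 1.99 ± 0.410 CPM in BafA1 NPC and 1.33 ± 0.101 CPM in control NPC (0.58 ± 0.35, adjusted p = 0.201), and was itself higher in control NPC than in hESC (6.11 ± 0.59, adjusted p = 2.14e-06).

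Among the corepressor genes whose proteins work with ZBTB16, SIN3A and NCOR1 fell with BafA1. SIN3A, a scaffold of histone deacetylase complexes, had 79.1 ± 10.2 CPM in BafA1 NPC and 100.5 ± 4.54 CPM in control NPC (-0.35 ± 0.10, adjusted p = 0.0131). NCOR1 had 106 ± 18.2 CPM in BafA1 NPC and 135 ± 4.66 CPM in control NPC (-0.34 ± 0.11, adjusted p = 0.0264). BCOR, at 47.4 ± 7.05 CPM in BafA1 NPC and 44.3 ± 1.03 CPM in control NPC, did not pass the test (adjusted p = 0.499). Between control NPC and hESC, SIN3A (-0.54 ± 0.10, adjusted p = 3.53e-04) and BCOR (-1.12 ± 0.11, adjusted p = 2.23e-06) were lower.

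DACH1 was strongly expressed in both NPC groups, and no difference between them was detected. It had 63.0, 63.6 and 58.0 CPM in BafA1 NPC, against 60.5, 67.1 and 72.3 CPM in control NPC and 0.261, 0.166 and 0.358 CPM in hESC. The NPC groups overlapped. The means were 61.5 ± 3.09 CPM in BafA1 NPC and 66.6 ± 5.95 CPM in control NPC (-0.12 ± 0.11, adjusted p = 0.413), and removing trends with GC content and length turned the sign (0.061). None of the 19 alternatives called it.

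Of 16 other genes of the PAX, sine oculis homeobox, EYA and DACH families, 14 were tested. Of these, 1 rose and 2 fell with BafA1 (median -0.25), beside 20.8% and 20.7% of all genes tested. In control NPC 6 were higher and 4 lower than in hESC (median 0.314), beside 33.0% and 31.6% of all genes. SIX3, a forebrain and eye field gene, had 4.13 ± 0.479 CPM in BafA1 NPC and 2.30 ± 1.11 CPM in control NPC (0.84 ± 0.30, adjusted p = 0.0387). Its lowest BafA1 library, at 3.60 CPM, lay only slightly above its highest control library, at 3.57 CPM. SIX4 had 12.1 ± 0.653 CPM in BafA1 NPC and 15.3 ± 0.894 CPM in control NPC (-0.34 ± 0.10, adjusted p = 0.0196). PAX5, a gene of the midbrain and hindbrain boundary, had 0.0364 ± 0.0631 CPM in BafA1 NPC and 0.352 ± 0.0915 CPM in control NPC (-3.16 ± 0.83, adjusted p = 0.0101). This came from 6, 0 and 0 counts in BafA1 NPC, against 21, 24 and 14 counts in control NPC. In hESC PAX5 had 67, 23 and 47 counts (0.751 ± 0.306 CPM), and control NPC were not called different from hESC (adjusted p = 0.124). SIX5, at 22.5 ± 3.23 CPM in BafA1 NPC and 27.7 ± 2.57 CPM in control NPC, did not pass (adjusted p = 0.0537). DACH2, the relative of DACH1, had 11.3 ± 1.10 CPM in BafA1 NPC and 13.7 ± 2.02 CPM in control NPC (-0.28 ± 0.15, adjusted p = 0.147).

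MSI1 was expressed in all 3 groups and was higher in both NPC groups than in hESC. Its level was 99.4, 102 and 91.7 CPM in BafA1 NPC, against 103, 104 and 101 CPM in control NPC and 59.3, 65.4 and 56.0 CPM in hESC. The NPC groups overlapped, and all NPC libraries were above all hESC libraries. The BafA1 difference was -0.07 ± 0.08 (adjusted p = 0.526), while control NPC were higher than hESC by 0.77 ± 0.08 (1.70-fold, adjusted p = 5.36e-06). On the FPKM scale MSI1 had 27.0 ± 1.34 in BafA1 NPC and 31.4 ± 1.02 in control NPC, and limma on log2(FPKM + 1) called it lower (-0.21, adjusted p = 0.0338), as did edgeR with GC and length trends removed (-0.28, adjusted p = 0.0231). The FPKM were used as deposited, with no scaling added. With library totals alone edgeR gave -0.20 for MSI1 without calling it (adjusted p = 0.0931). The reason for the different calls was not tested. MSI2, its relative, had 186 ± 28.3 CPM in BafA1 NPC and 136 ± 7.13 CPM in control NPC, and was higher with BafA1 (0.45 ± 0.11, adjusted p = 0.00575). NUMB, a Notch antagonist whose message MSI1 binds, had 62.5 ± 3.89 CPM in BafA1 NPC and 53.8 ± 1.83 CPM in control NPC (0.22 ± 0.08, adjusted p = 0.0384). CDKN1A, a cell cycle inhibitor whose message MSI1 also binds, had 138 ± 25.0 CPM in BafA1 NPC and 119 ± 19.1 CPM in control NPC (0.21 ± 0.16, adjusted p = 0.311), and rose in control NPC over hESC (4.06 ± 0.19, adjusted p = 3.69e-09). These RNA levels do not bear on translation.

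FABP7 was expressed in all 3 groups and varied widely between the control NPC libraries. It had 20.9, 17.5 and 11.4 CPM in BafA1 NPC, against 12.6, 18.3 and 37.3 CPM in control NPC and 13.0, 11.2 and 12.0 CPM in hESC. The third control library alone stood above 21 CPM, and the other NPC libraries overlapped between the groups and with hESC. The mean was 16.6 ± 4.81 CPM in BafA1 NPC and 22.7 ± 12.9 CPM in control NPC (-0.46 ± 0.32, adjusted p = 0.281). Without control replicate 3 this value changed sign (0.098, adjusted p = 0.769). The difference of control NPC from hESC was called (0.92 ± 0.33, adjusted p = 0.0266), but without control replicate 3 it was 0.36 (adjusted p = 0.190), and it was lost in 8 of 19 alternatives, including the replicate block (0.0580) and without any 1 of the hESC replicates (0.0532 to 0.0758). SMPDL3A, an acid phosphodiesterase gene 5184 bases from FABP7, was also highest in the third control library, with 23.9, 13.3 and 13.9 CPM in BafA1 NPC, against 18.7, 22.3 and 33.4 CPM in control NPC (-0.54 ± 0.24, adjusted p = 0.0958). Of the related fatty acid carriers, FABP3 had 4.07 ± 0.508 CPM in BafA1 NPC and 7.93 ± 2.40 CPM in control NPC and fell (-0.96 ± 0.21, adjusted p = 0.00380), and FABP5, at 104 ± 17.4 CPM in BafA1 NPC and 124 ± 19.3 CPM in control NPC, did not pass the test (adjusted p = 0.164).

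LIX1 appeared during differentiation and was somewhat higher in BafA1 libraries without passing the test. It had 52.3, 65.6 and 56.6 CPM in BafA1 NPC, against 36.0, 50.8 and 47.4 CPM in control NPC, and 5, 8 and 0 counts in hESC. The groups of NPC did not overlap, but the lowest BafA1 library lay only slightly above the highest control library. The mean was 58.2 ± 6.75 CPM in BafA1 NPC and 44.7 ± 7.74 CPM in control NPC (0.38 ± 0.17, adjusted p = 0.0996). DESeq2 called it (0.39, adjusted p = 0.0289), as did edgeR with GC and length trends removed (0.53, adjusted p = 0.0268). Control NPC were higher than hESC by 9.22 ± 0.32 (adjusted p = 4.15e-10), and by 10.04 without hESC replicate 2. LIX1L, its relative, had 46.8 ± 1.81 CPM in BafA1 NPC and 38.3 ± 3.89 CPM in control NPC and was called higher (0.29 ± 0.10, adjusted p = 0.0406). LIX1-AS1, which overlaps LIX1 on the other strand, had 0 counts in 8 of 9 libraries. Of all 7 close relatives of the members, 3 rose and 2 fell with BafA1 (median -0.245), beside 20.8% and 20.7% of all genes tested.

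**Figure D4:**
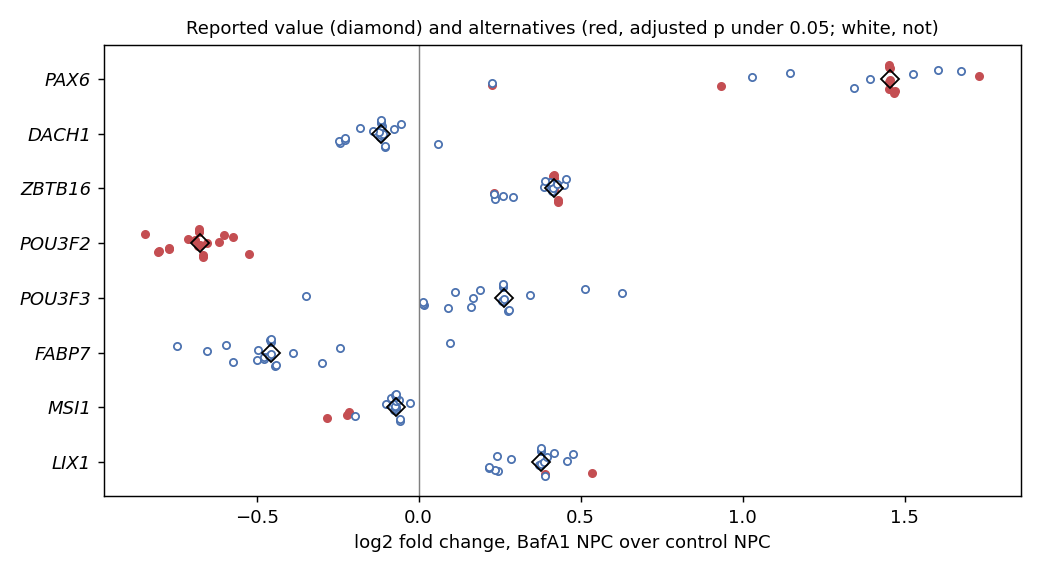
Log2 fold change of each member for BafA1 NPC over control NPC as reported (diamond) and in 19 alternative settings (circles, red where the adjusted p was under 0.05 and white otherwise). POU3F2 is red throughout, PAX6, ZBTB16, MSI1 and LIX1 hold both colours, and DACH1, POU3F3 and FABP7 each cross 0 in 1 setting.

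Per length, the members fell into a highly expressed and a barely expressed class. In BafA1 NPC the order of mean FPKM was MSI1 (27.0 ± 1.34), POU3F2 (16.6 ± 1.01), FABP7 (15.9 ± 4.76), LIX1 (12.5 ± 0.868), DACH1 (9.52 ± 0.453), ZBTB16 (8.12 ± 0.738), PAX6 (0.287 ± 0.151) and POU3F3 (0.151 ± 0.101). Among neighbours in that order, FABP7 overlapped with both POU3F2 and LIX1, and PAX6 with POU3F3. In control NPC the order was MSI1 (31.4 ± 1.02), POU3F2 (29.4 ± 6.56), FABP7 (24.2 ± 13.8), DACH1 (11.3 ± 0.955), LIX1 (10.7 ± 1.89), ZBTB16 (6.75 ± 0.222), POU3F3 (0.138 ± 0.037) and PAX6 (0.0957 ± 0.0418). There, POU3F2 overlapped with both MSI1 and FABP7, DACH1 with LIX1, and POU3F3 with PAX6. In hESC MSI1 (17.7 ± 1.18 FPKM) and FABP7 (11.9 ± 1.23 FPKM) led, and the other 6 were each under 0.06 FPKM in every library. POU3F2, POU3F3 and LIX1 have 1 transcript in the table, whereas PAX6 has 53, DACH1 8, ZBTB16 9, FABP7 4 and MSI1 12, and how the authors treated several transcripts of a gene is not known here.

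The genes whose log2 CPM followed each member most closely over the 9 libraries are given by Pearson's r, as a description: the 9 points fall into 3 groups, so r is set mainly by the step from hESC to NPC. POU3F2 was followed most closely by ATOH8 (r = 0.9988), PTPRN2 (0.9985) and NR2F1 (0.9985). For DACH1 the closest genes were KIAA0895, SLIT1 and ZNF503 (0.9991 to 0.9996), for ZBTB16 RFX4 (0.999), CLEC19A (0.998) and DBX1 (0.998), and for LIX1 NXPH2, RRAGB and FOXB1 (0.996 to 0.997). MSI1 was followed closely by ZNF561 (0.9951) and MIR570HG (0.9926). FABP7 had the weakest likeness to any gene, with CACNA2D4 at 0.965 followed by KANSL1L (0.928) and ZNF19 (0.916). The values for the scarcely counted PAX6 (IKZF2, 0.995) and POU3F3 (TCEANC2, 0.993) rest on few reads of the members.

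Other genes of neural progenitors moved in both directions with BafA1. Of 24 in the list 23 were tested, of which 8 rose and 6 fell (median -0.008), beside 20.8% and 20.7% of all genes tested. In control NPC 17 were higher and 3 lower than in hESC (median 1.99), beside 33.0% and 31.6% of all genes. PROM1, a membrane glycoprotein of progenitors, had 24.6 ± 1.99 CPM in BafA1 NPC and 54.4 ± 2.82 CPM in control NPC (-1.15 ± 0.09, adjusted p = 1.04e-05). FEZF2, a forebrain transcription factor, had 42.3 ± 7.03 CPM in BafA1 NPC and 16.7 ± 1.31 CPM in control NPC (1.34 ± 0.13, adjusted p = 2.30e-05). SLC1A3, a glutamate transporter of radial glia, had 22.7 ± 2.32 CPM in BafA1 NPC and 48.9 ± 8.32 CPM in control NPC (-1.11 ± 0.12, adjusted p = 5.90e-05). HES4, a repressor of the HES family, had 23.6 ± 2.74 CPM in BafA1 NPC and 7.68 ± 1.43 CPM in control NPC (1.62 ± 0.19, adjusted p = 7.96e-05).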

How the data were processed

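Libraries were made with a stranded mRNA kit from total RNA, per the labels' protocols. The submitters' processing notes name Trimmomatic and GRCh38; no source used here names the aligner or counter. Deposited were 1 table of raw whole-number counts per gene and 3 tables of the authors' FPKM, by group, per the file headers. Columns named as control were matched to the untreated NPC, the group left for them.

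Counts were tested with edgeR 4.0.16 in R 4.3.3: filterByExpr (20685 genes kept), TMM, glmQLFit with 1 term per group over all 9 libraries and glmQLFTest (two-sided), with Benjamini-Hochberg adjustment over all genes tested. The code was tested on simulated data. Alternatives were DESeq2 1.42.0, limma 3.58.1 on log2(FPKM + 1) or log2(FPKM + 0.1), other scalings and filters, only the 6 libraries compared, the replicate number as a block, leaving out each library and, added after seeing the data, removing GC and length trends (loess, span 0.5; 17489 genes with values). No library was a copy of another. Same-numbered libraries of different groups did not deviate together (correlations -0.055 to 0.088), so numbers were not taken as pairs. Named are the 8 members, up to 4 genes per list with the smallest adjusted p in BafA1 NPC against control NPC, neighbouring genes and the 3 most similar genes; some results under this rule are not reported here. The members and lists were chosen with earlier results of these data known. Positions and promoter sequences are from RefSeq (GRCh38.p14), joined by gene ID; 5 of 8 members had a promoter window. Floors cover counting error only. Markers of endoderm and surface ectoderm summed to at most 0.696 FPKM in any library, and those of neural crest to 16.3 to 20.3 in BafA1 NPC, 15.7 to 26.2 in control NPC and 43.4 to 48.3 in hESC.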

Additional observations from a re-analysis of the deposited data

How the results depend on the processing

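POU3F2, POU3F1 and POU3F4 kept their BafA1 calls in all 19 alternatives. The number of members called between BafA1 NPC and control NPC, 2 as reported, was 1 under library totals alone, 1 with the replicate block, 4 with DESeq2, 4 with GC and length trends removed, and 1 to 3 when a library was left out. The value of DACH1 turned to 0.0606 with GC and length trends removed, that of POU3F3 to -0.3479 without BafA1 replicate 1 (-0.3479 to 0.6294 over the libraries left out) and that of FABP7 to 0.0982 without control replicate 3 (-0.745 to 0.0982); none of the 3 was called there, and the cause was not tested. The members called between control NPC and hESC numbered 6 to 8 in all alternatives. On log2(FPKM + 1), which understates low genes, these differences were 3.56 for DACH1, 2.95 for ZBTB16, 4.87 for POU3F2, 3.51 for LIX1, 0.172 for POU3F3 and 0.981 for POU3F4. PAX6 had 0.131 on that scale and lost its call over hESC with limma (adjusted p = 0.126, and 0.21 when every gene was tested). Over all genes 4309 rose with BafA1, against 2520 when limma tested every gene on log2(FPKM + 1). Scaling by library totals alone moved the median log2 change of all genes to -0.116 after BafA1 and to 0.138 between control NPC and hESC; 35.3% of its 8785 BafA1 calls were higher, against 50.2% of 8586 as reported and 33.9% of 8670 with limma on FPKM. The replicate block gave 8242 calls after BafA1 and 13116 between control NPC and hESC, against 13345 as reported; it ended the BafA1 call of PAX6 (adjusted p = 0.101) and the FABP7 call between control NPC and hESC (0.0580), and changed no other member's call. Depth limits PAX6, POU3F3 and PNKY, whose counts in NPC libraries were 10 to 88, 24 to 77 and 16 to 57.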
